A study of Mus musculus with 2 samples.

Results

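Tgm4-high secretory luminal cells are prostate epithelial cells with high transcript levels of a small group of genes led by Tgm4. They were chosen from single-cell RNA profiles in 2 steps. Cells with Epcam and Krt8 above 0, Krt5 below 1 on the natural log scale and no Ptprc were taken as gated epithelial cells. Each was scored by the mean natural log value of Tgm4, Ren1, Pnliprp1 and C1rb, and the top 8% of gated cells over all data were taken. The rule gave 865 Tgm4-high cells among 10822 gated cells and 15742 cells in all. Because the cells were chosen by measured values, their levels against those of the other gated cells are a description and were given no test.

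The tissue came from the prostates of R26 mTmG/hAR:Osr1 Cre/+ mice on mixed C57BL/6 and 129S1/SvImJ backgrounds. In these mice Cre recombinase, expressed under control of Osr1, switched on a transgene (hARtg, feature ARQ) and membrane-bound green fluorescent protein (mGFP, feature EGFP) from the R26 locus, so that both mark cells whose ancestors expressed Osr1. There was 1 library of prostatic intraepithelial neoplasia (PIN), taken at 6 months of age, and 1 of prostatic adenocarcinoma (PCa), taken at 12 months, both of this genotype and with no transgene-free control. The cell barcodes end in 1 of 2 suffixes, which divide the cells into barcode sets 1 and 2. The labels tie neither suffix to a tissue, so no cell was assigned to PIN or PCa.

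Luminal cells of the mouse prostate line the gland and secrete the proteins of the prostatic fluid, and the lobes differ in which proteins they make. Tgm4 encodes prostate transglutaminase, an enzyme that cross-links seminal vesicle proteins into the copulatory plug. Ren1 encodes renin, the protease that cleaves angiotensinogen. Pnliprp1 encodes a relative of pancreatic lipase, C1rb and C1s2 encode paralogs of the complement proteases C1r and C1s, and Chn2 encodes beta-chimaerin, which stimulates GTP hydrolysis by Rac.

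The promoter windows of 6 genes are shown because their levels set Tgm4-high cells apart from the other gated cells, Ren1 and Pbsn mainly in set 2. Each window holds 250 bases before and 50 after the RefSeq start on GRCm38.p6, the mm10 assembly. Capitals mark TATAAA, the letters of a TATA box, and AGAACA, a half-site of the androgen response element. The genes 9530053A07Rik and Pbsn were outside the score and marker genes and are shown for their high levels.
Tgm4, chr9:123034491-123034790, plus strand: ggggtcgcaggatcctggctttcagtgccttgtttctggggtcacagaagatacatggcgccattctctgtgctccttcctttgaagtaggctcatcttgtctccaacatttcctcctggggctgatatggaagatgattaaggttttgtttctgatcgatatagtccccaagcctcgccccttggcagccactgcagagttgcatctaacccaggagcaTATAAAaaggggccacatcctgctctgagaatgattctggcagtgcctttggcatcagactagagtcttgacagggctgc
Ren1, chr1:133350424-133350723, plus strand: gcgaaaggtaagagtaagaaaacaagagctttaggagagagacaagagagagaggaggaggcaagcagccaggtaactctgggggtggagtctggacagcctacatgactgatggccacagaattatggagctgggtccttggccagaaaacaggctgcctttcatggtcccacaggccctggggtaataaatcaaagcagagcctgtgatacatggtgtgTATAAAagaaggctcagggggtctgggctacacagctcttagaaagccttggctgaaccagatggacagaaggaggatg
C1rb, chr6:124570180-124570479, plus strand: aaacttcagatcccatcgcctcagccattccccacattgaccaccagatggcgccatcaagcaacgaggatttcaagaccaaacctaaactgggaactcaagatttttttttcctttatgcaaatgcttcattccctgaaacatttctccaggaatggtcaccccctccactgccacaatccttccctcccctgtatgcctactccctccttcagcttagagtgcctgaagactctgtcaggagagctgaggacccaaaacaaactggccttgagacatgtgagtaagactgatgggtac
C1s2, chr6:124636036-124636335, minus strand: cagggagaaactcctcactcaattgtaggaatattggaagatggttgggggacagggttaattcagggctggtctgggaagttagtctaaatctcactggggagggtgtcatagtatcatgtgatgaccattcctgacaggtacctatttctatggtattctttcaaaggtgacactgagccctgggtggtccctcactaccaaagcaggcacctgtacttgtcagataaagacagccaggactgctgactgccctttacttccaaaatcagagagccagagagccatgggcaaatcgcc
9530053A07Rik, chr7:28129216-28129515, plus strand: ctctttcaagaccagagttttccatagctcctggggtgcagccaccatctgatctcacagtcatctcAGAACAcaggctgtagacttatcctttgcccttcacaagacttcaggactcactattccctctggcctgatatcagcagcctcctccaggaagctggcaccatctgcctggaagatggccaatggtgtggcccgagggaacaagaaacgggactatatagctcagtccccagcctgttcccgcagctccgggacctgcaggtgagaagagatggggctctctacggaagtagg
Pbsn, chrX:77853451-77853750, minus strand: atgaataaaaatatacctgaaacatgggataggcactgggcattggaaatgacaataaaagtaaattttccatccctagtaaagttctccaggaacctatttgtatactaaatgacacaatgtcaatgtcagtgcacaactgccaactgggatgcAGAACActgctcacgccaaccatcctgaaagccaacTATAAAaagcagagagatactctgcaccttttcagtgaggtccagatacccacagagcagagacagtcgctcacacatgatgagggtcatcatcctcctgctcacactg

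TATAAA began 30 bases before the start in Tgm4 and 29 bases before it in Ren1, and lay 59 bases before the listed start of Pbsn. These letters were found on either strand of 13.6% of the 32851 promoter windows of this length. AGAACA lay 95 bases before the start in Pbsn and 183 bases before it in 9530053A07Rik, and 19% of all windows held it on either strand. The full element (AGAACA, any 3 bases, then TGTTCT), found in 3 windows of the whole table, and the forkhead letters TGTTTAC, found in 3.65% of windows, matched none of the windows printed here. The windows of Pnliprp1 (chr19:58728637-58728936), C1rb and C1s2 held none of these motifs. A match describes these letters only. C1rb (chr6:124570430-124581044) and C1s2 (chr6:124624625-124636085) are near neighbours with close paralogs C1ra and C1s1, and reads from near-identical copies may have been split or dropped in counting.

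Set 1 held 6332 cells and 134850345 unique molecular identifiers (UMIs, which mark single captured RNA molecules), and set 2 held 9410 cells and 187280119 UMIs. Tgm4-high cells had medians of 25939 UMIs in set 1 and 24400 in set 2, and the other gated cells 27598 and 17031.5, so detection in single cells was also compared after each cell was thinned to 3000 UMIs. The sets shared 67 barcodes. Levels are counts per 1000000 UMIs (CPM), summed over the cells of a group, with exact Poisson 95% intervals, and shares of cells carry Clopper-Pearson 95% intervals. With 1 library per tissue there were no replicates, and all intervals cover counting error only.

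Tgm4-high cells were a larger share of gated cells in set 1 than in set 2. They made up 16.9% (15.6 to 18.2%) of the 3121 gated cells of set 1, or 526 cells, and 4.40% (3.95 to 4.88%) of the 7701 gated cells of set 2, or 339 cells. The lowest scores inside the limit were 1.4464 and 1.4482, and the highest outside were 1.4459 and 1.4444. In set 1 the number of cells was near level around the limit, with 104 cells scoring 1.2 to 1.4, 86 scoring 1.4 to 1.6, 97 scoring 1.6 to 1.8 and 92 scoring 2.0 to 2.2, so the limit fell within a run of cells with no gap. In set 2 the numbers fell to 15 cells between 2.0 and 2.2 and were higher again at 36 between 3.0 and 3.2. The median score of the Tgm4-high cells was 2.00 in set 1 and 2.88 in set 2.

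**Figure D1:**
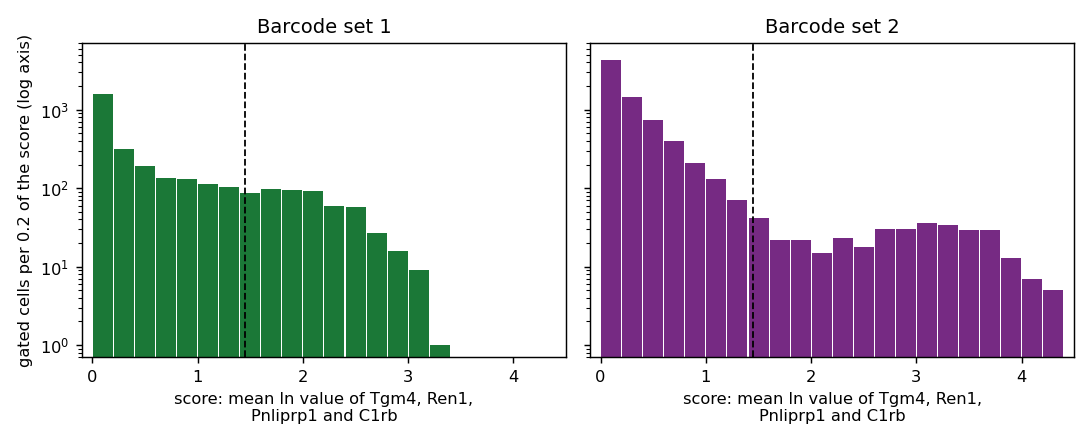
Number of gated cells (log axis) per 0.2 of the score in each barcode set; the dashed line is the lowest score of a Tgm4-high cell, 1.4464. Set 1 is near level around the limit (104, 86 and 97 cells from 1.2 to 1.8), and set 2 has a second group of cells above it, with 36 cells between 3.0 and 3.2.

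The score genes differed in how evenly they were found. Tgm4 was at 9161 CPM (9112 to 9210) in Tgm4-high cells and 386 CPM (381 to 390) in the other gated cells of set 1, and at 12496 CPM (12423 to 12570) and 215 CPM (213 to 217) in set 2. C1rb was at 1435 against 89.6 CPM in set 1 and 1252 against 63.0 CPM in set 2, and Pnliprp1 at 552 against 36.2 CPM and 660 against 9.16 CPM. Single cells spread widely around these sums. Tgm4 ran from 479 to 28568 CPM per cell with a median of 8903 in set 1, and from 254 to 35403 with a median of 13295 in set 2. A Pnliprp1 UMI was found in 76.4% (72.6 to 80.0%) of Tgm4-high cells of set 1 and 77.3% (72.5 to 81.6%) of set 2.

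Ren1 set the barcode sets apart. Because Ren1 is a score gene, cells could enter the group through it, and its levels in Tgm4-high cells partly follow from the rule. Its level in Tgm4-high cells was 11.1 CPM (9.50 to 12.97) in set 1 but 3268 CPM (3230 to 3306) in set 2, a 293-fold difference (95% interval 252 to 344). A Ren1 UMI was found in 8.17% (5.98 to 10.9%) of Tgm4-high cells of set 1 and 90.3% (86.6 to 93.2%) of set 2. After thinning the shares were 1.92% (0.926 to 3.51%) and 80.4% (75.7 to 84.6%). Leukocytes (Ptprc above 0 and Epcam at 0, median 3803 and 7481.5 UMIs), which should lack Ren1, had thinned shares of 0.187% (0.00472 to 1.04%) and 0.645% (0.0163 to 3.54%). Most Tgm4-high cells of set 1 thus lacked a Ren1 UMI, although Ren1 is among the markers that name them. In the other gated cells Ren1 was at 0.429 and 8.01 CPM. The 129 strains carry a second renin gene, Ren2, which was not a feature of the table, and reads of Ren1 and Ren2 could not be told apart.

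C1s2 and Chn2 mark these cells but were not in the score. Both were taken as markers with earlier results of these data known, so their levels are a description. C1s2 was at 533 CPM (521 to 545) in Tgm4-high cells and 30.6 CPM (29.4 to 31.9) in the other gated cells of set 1, and at 357 CPM (345 to 370) and 9.33 CPM (8.87 to 9.81) in set 2. Chn2 was at 490 CPM (478 to 501) and 17.7 CPM (16.8 to 18.7) in set 1. In set 2 it was at 48.1 CPM (43.6 to 52.9) and 8.57 CPM (8.12 to 9.03), and its level in Tgm4-high cells of set 2 was 0.0981 times that of set 1 (95% interval 0.0888 to 0.108). All 5 markers were seen together in 36 Tgm4-high cells (6.84%) of set 1 and 171 (50.4%) of set 2. Exactly 4 of them were seen in 325 (61.8%) and 107 (31.6%). Tgm4, Ren1 and Pnliprp1 are also score genes, so these counts partly follow from the rule.

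**Figure D2:**
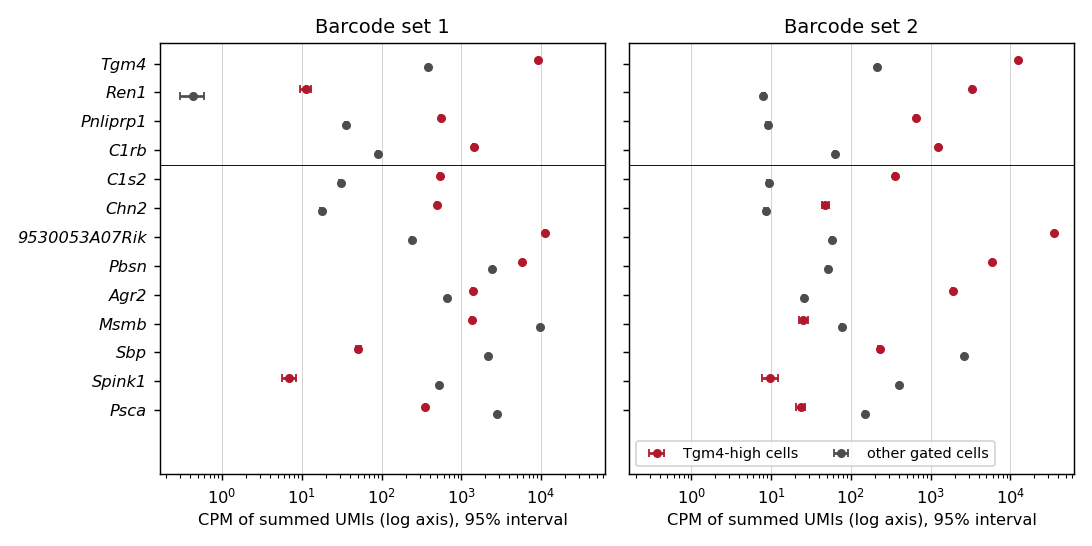
CPM of summed UMIs (log axis) with Poisson 95% intervals in Tgm4-high cells (red) and the other gated cells (grey) of each barcode set; the genes above the line made up the score. Ren1 lies at 11.1 CPM (set 1) and 3268 CPM (set 2) in Tgm4-high cells, and Msmb, Sbp, Spink1 and Psca lie lower in Tgm4-high than in the other cells of both sets.

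Luminal markers were read as a description, since the gate had already required Epcam and Krt8 above 0 and Krt5 below 1. The presence of Krt8 thus follows from the gate. Krt8, a keratin of luminal cells, was at 6217 against 7078 CPM in set 1 and 5181 against 8293 CPM in set 2, and its partner Krt18 at 5333 against 5467 CPM and 5295 against 7614 CPM. Hoxb13, a transcription factor of the prostate, was at 204 against 119 CPM and 171 against 28.7 CPM, and Prom1, a membrane glycoprotein, at 66.2 against 17.2 CPM and 84.4 against 0.985 CPM. All these genes came from a list of 10 luminal markers. The list summed to 19125.6 CPM in Tgm4-high against 20404.5 CPM in the other gated cells of set 1, and to 14856.2 against 18126.3 CPM in set 2. Most markers of leukocytes, fibroblasts, smooth muscle, endothelium and neuroendocrine cells were under 10 CPM, while basal, proximal luminal and, in set 2, seminal vesicle genes were found at the levels given with those lists. Of 10 leukocyte markers 9 were under 10 CPM in set 1, with Ptprc at 0 by the gate, and Cd74, the invariant chain of MHC class II, was at 2187 CPM. All 10 were under 10 CPM in set 2, and the list summed to 2195 and 9.86 CPM, against 4076 and 48.4 CPM in the other gated cells. Dcn was the 1 of 6 fibroblast markers over 10 CPM, at 27.1 against 160 CPM and 93.5 against 244 CPM. The smooth muscle, endothelial and neuroendocrine marker lists each summed to at most 16.2 CPM in Tgm4-high cells of either set.

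The comparison of all genes described what Tgm4-high cells share, with the score genes kept in the counts. Ratios are given as log2((CPM + 10)/(CPM + 10)), and a gene is called higher or lower at a ratio of 1 or more in size when the mean of the 2 levels was at least 10 CPM. In set 1, 94 genes were higher (1.29% of 7285) and 227 lower (3.12%). In set 2, 392 genes were higher (5.52% of 7104) and 308 lower (4.34%). The 61 genes higher in both sets were 0.931% of the 6552 genes listed in both, 64.9% of the genes higher in set 1 and 15.6% of those higher in set 2. The 67 lower in both were 1.02%, and 12 (0.183%) were past the limit in opposite directions. The counts of higher genes include score genes, 3 in set 1, 4 in set 2 and 3 in both, whose higher levels follow from the rule. The median ratio over all listed genes was 0.11 in set 1 and 0.06 in set 2. The other gated cells also differed between the sets, since a hARtg UMI was found in 48.8% of them in set 1 and 97.8% in set 2.

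Named genes at the higher end included secreted proteins and enzymes of several kinds. 9530053A07Rik, which RefSeq lists with the synonym FCGBP, was the most abundant transcript of Tgm4-high cells in both sets. It was at 11086 CPM (11033 to 11140) against 241 CPM (237 to 244) in set 1, a log2 ratio of 5.47, and at 35420 CPM (35296 to 35544) against 58.1 CPM (56.9 to 59.3) in set 2, a log2 ratio of 9.02. It alone made up 1.11% and 3.54% of the UMIs of these cells. Pbsn, the androgen-dependent secretory protein probasin, was near one level in Tgm4-high cells of both sets, at 5793 and 5870 CPM. Its log2 ratios of 1.23 and 6.59 differed with the other gated cells, which held 2458 CPM in set 1 and 51.0 CPM in set 2. Agr2, a disulfide isomerase of the endoplasmic reticulum, was at 1398 against 669 CPM in set 1 and 1900 against 25.8 CPM in set 2.

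Other genes high in both sets were Fgl1, a secreted fibrinogen-like protein, with log2 ratios of 2.77 and 4.78, 9530003J23Rik (synonym Lyzf1) with 4.31 and 5.54, the galactosidase-like gene Glb1l3 with 2.69 and 4.70, and the predicted genes Gm37223 (3.35 and 5.46) and Gm5615 (3.25 and 4.83). Gsdma, a gasdermin, was at 203 against 11.0 CPM in set 1 and 396 against 65.8 CPM in set 2.

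Several prostate secretory genes were at the lower end. Spink1, a trypsin inhibitor, was at 6.88 CPM (5.61 to 8.36) in Tgm4-high cells and 525 CPM (520 to 530) in the other gated cells of set 1, and at 9.75 CPM (7.80 to 12.04) and 403 CPM (400 to 406) in set 2. Sbp, the spermine-binding protein, was at 51.0 against 2151 CPM and 232 against 2638 CPM. Msmb, the beta-microseminoprotein, was at 1350 against 9744 CPM in set 1, and in set 2 it was low in both, at 25.4 and 76.9 CPM. The log2 ratios of Jchain (-5.00 and -1.74), Sbpl (-2.92 and -2.77), Spink5 (-3.18 and -2.34), Wfdc3 (-3.55 and -1.49) and Cldn10 (-3.26 and -1.70) were negative in both sets.

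These lower sums rested on a minority of the other gated cells for some of the genes. In set 1 most UMIs of Spink1, Wfdc3 and Sbp lay in cells high in Msmb, as given with that group below. Spink1 was found in 9.89% (7.47 to 12.8%) of Tgm4-high and 14.5% (13.2 to 15.9%) of the other gated cells of set 1, and in 19.2% (15.1 to 23.8%) and 19.7% (18.8 to 20.7%) in set 2, with the highest single cell at 376 CPM among Tgm4-high cells of set 2 and 133610 CPM among the others. Sbp was found in 71.1% (65.9 to 75.9%) and 71.4% (70.4 to 72.5%) in set 2, or 17.2% (13.3 to 21.7%) and 30.2% (29.1 to 31.3%) after thinning. Jchain was found in 12.2% (9.50 to 15.3%) and 13.7% (12.4 to 15.1%) in set 1. The median Msmb level per cell of set 1 was 93.2 CPM in Tgm4-high and 127 CPM in the other gated cells, far closer than the sums.

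**Figure D3:**
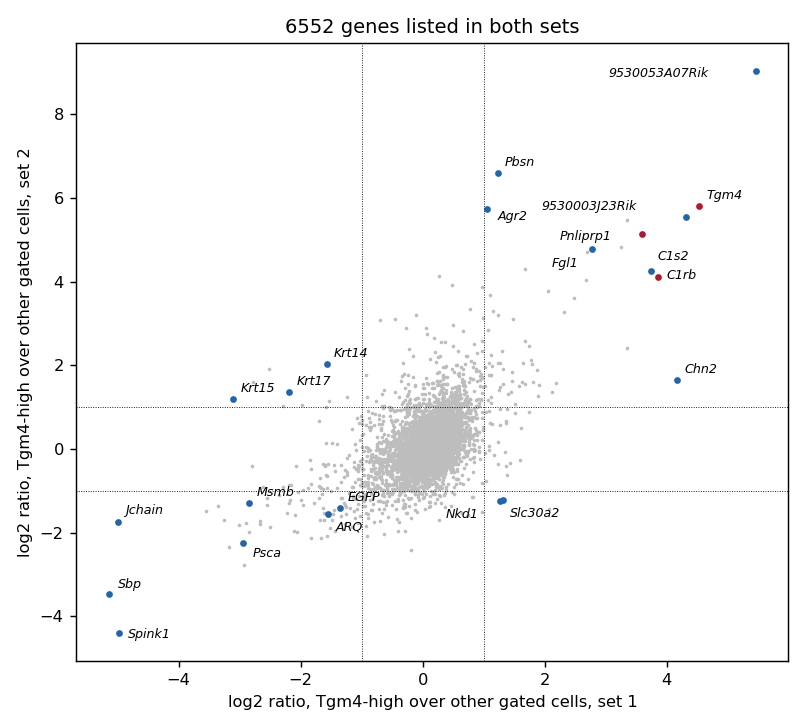
Log2 ratio of Tgm4-high over other gated cells in set 1 (x axis) and set 2 (y axis) for the 6552 genes listed in both, with named genes marked, score genes in red and dotted lines at 1 and -1. Genes such as 9530053A07Rik (5.47 and 9.02) lie at the upper right, Sbp and Spink1 at the lower left, and Krt14, Krt15 and Krt17 at the upper left.

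Gene groups were described by counts and medians beside those of all genes. Over all listed genes 1.29% were higher and 3.12% lower in set 1, with a median log2 ratio of 0.11. In set 2 these values were 5.52%, 4.34% and 0.06. The list named prostate secretory genes also held genes that do not encode secretions, among them the gasdermin Gsdma and the transcription regulator Nupr1. Of its 15 listed genes, 3 were higher in each set (Pbsn, Fgl1 and Gsdma), while 9 were lower in set 1 and 8 in set 2. Their median log2 ratios were -2.57 and -1.30. Among 20 listed genes of the secretory pathway and the unfolded protein response, 2 were higher in set 1 (Agr2 and Creld2) and 10 in set 2, with none lower and medians of 0.44 and 0.95. Hspa5, the main chaperone of the endoplasmic reticulum, was at 5842 against 3614 CPM and 4489 against 2022 CPM. Of 10 listed luminal genes 1 was higher in set 1 and 4 in set 2, with none lower and medians of 0.12 and 0.70. Prom1 and Hoxb13 were named for having the largest mean ratios of that list. Proximal luminal genes were lower, 7 of 8 listed in set 1 (median -2.12) and 4 of 6 in set 2 (median -1.29). Psca, a surface protein of proximal luminal cells, was at 355 against 2791 CPM and 23.6 against 149 CPM.

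Part of the early response genes were lower. Of 14 such genes 6 were lower in set 1 and 8 in set 2, with Ier3, Fos, Dusp1, Junb, Jun and Zfp36 lower in both and none higher. Ier3 was at 188 against 620 CPM in set 1 and 157 against 721 CPM in set 2, and Fos, a subunit of the AP-1 transcription factor, at 110 against 314 CPM and 166 against 677 CPM. These genes also respond to tissue dissociation, whose part here was not tested.

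The families of the marker genes were read in the same way. Tgm4, Ren1, Pnliprp1 and C1rb made up the score, so their own higher levels follow from the rule. Tgm4 was the 1 transglutaminase gene called higher in either set. In the renin-angiotensin system, Ace, which makes angiotensin II, was at 94.7 against 37.1 CPM in set 1 and 118 against 3.04 CPM in set 2, and Agtr1a, an angiotensin receptor, at 20.3 against 49.0 CPM and 17.9 against 41.5 CPM. Of the complement genes C1rb and C1s2 were higher in both sets, while Clu, an inhibitor of the terminal complex, was lower at 4221 against 9662 CPM and 440 against 1175 CPM. The paralog C1ra was at 20.4 CPM in the Tgm4-high cells of set 1 and at 11.1 CPM for set 2. Among the lipases Pnliprp2 was at 18.7 against 1.49 CPM in set 1 and 8.84 against 1.58 CPM in set 2, where it was under the filter on low levels. Of the chimaerins and Rac regulators 1 of 6 listed genes, Chn2, was higher in each set.

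Genes of the androgen response outside secretion were also read as a list. Over all listed genes 1.29% were higher and 3.12% lower in set 1, and 5.52% and 4.34% in set 2. Counts of 1 to 3 genes in such short lists are a description only. Of 12 listed genes none was higher and 1 lower in set 1 (Fkbp5, log2 ratio -1.41), and 2 were higher and none lower in set 2 (Tmprss2 at 2.01 and Sgk1 at 1.37). Of genes of insulin-like growth factor signalling, 4 of 14 listed were lower in set 1 (median -0.11) and 4 of 15 in set 2 (median 0.04), with none higher. Igfbp7, Socs3 and Mapk13 were lower in both sets, and the receptor gene Igf1r was at 58.0 against 66.3 CPM and 88.4 against 90.2 CPM. Of Wnt feedback genes and targets, 7 of 13 listed were lower in set 2 (median -1.16) and 0 of 7 in set 1 (median -0.05), where Nkd1 was higher. Axin2, an inhibitor induced by Wnt signalling, was at 57.9 CPM (53.0 to 63.2) against 183 CPM (181 to 185) in set 2 and 19.7 against 21.6 CPM in set 1. Of 9 listed polyamine synthesis genes none was higher in set 1 and 2 were in set 2 (Sms and Odc1). Of genes of MHC class I and the interferon response none was higher, and 3 of 15 were lower in set 1 and 2 of 9 in set 2.

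The transgene and its reporter were lower in Tgm4-high cells than in the other gated cells of both sets. hARtg (ARQ) was at 59.0 CPM (55.1 to 63.0) against 191 CPM (188 to 194) in set 1 and at 513 CPM (499 to 529) against 1528 CPM (1522 to 1534) in set 2, with log2 ratios of -1.55 and -1.56. mGFP (EGFP) was at 453 against 1174 CPM and 3836 against 10218 CPM, with log2 ratios of -1.36 and -1.41. Free RNA can also give transgene UMIs in cells that lack the transgene, so shares were set beside those of leukocytes. After thinning, hARtg was seen in 7.31% (5.22 to 9.89%) of Tgm4-high cells and 2.05% (1.03 to 3.64%) of leukocytes of set 1, and in 40.1% (34.7 to 45.6%) and 16.8% (11.3 to 23.6%) in set 2. The other gated cells had shares of 21.9% (20.4 to 23.6%) and 92.7% (92.1 to 93.3%). For mGFP the shares were 11.7% (9.09 to 14.8%) of Tgm4-high cells and 8.77% (6.51 to 11.5%) of leukocytes in set 1, whose intervals overlap, and 74.1% (69.0 to 78.7%) and 50.3% (42.2 to 58.4%) in set 2. Osr1 had no UMI in the 526 and 339 Tgm4-high cells.

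**Figure D4:**
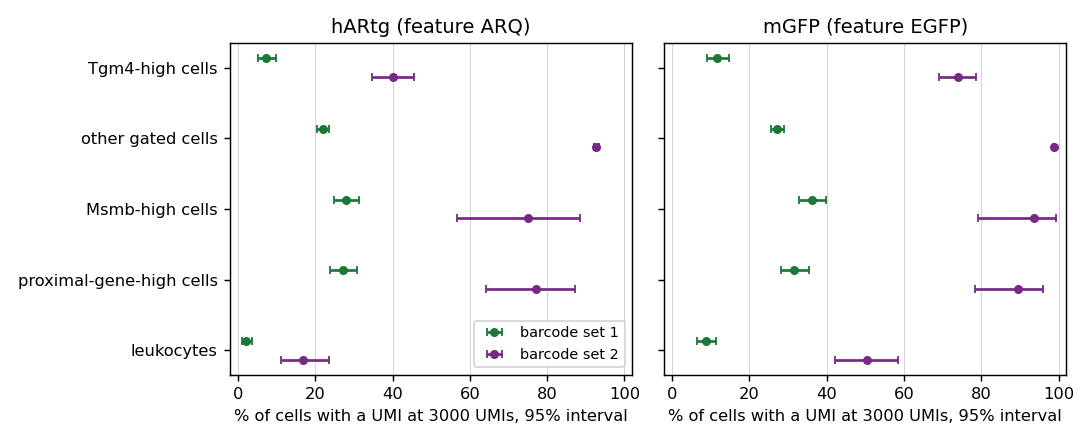
Share of cells with a UMI of hARtg (left) or mGFP (right) after thinning to 3000 UMIs, with Clopper-Pearson 95% intervals, in 5 groups of cells of each barcode set. Tgm4-high cells lie between leukocytes and the other gated cells, at 7.31% and 40.1% for hARtg.

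Tgm4-high cells were split by hARtg without thinning into cells with 1 or more UMI and cells with none. In set 1, 125 of 526 (23.8%) had hARtg, and in set 2, 242 of 339 (71.4%). Those of set 1 had a median of 1 hARtg UMI, with 5 or more in 31 cells, and those of set 2 a median of 9.5 UMIs, with 5 or more in 138. Free RNA can give single UMIs, and without thinning 4.53% of leukocytes of set 1 and 33.9% of set 2 had hARtg. A cell with 1 UMI thus need not express the transgene. A cell with none need not lack it, since mGFP was found in 28.9% of set 1 and 94.8% of set 2 cells without hARtg. Free RNA can give mGFP UMIs too, which 14.2% of leukocytes of set 1 and 86.3% of set 2 had. The cells with hARtg were deeper, with medians of 28303 against 25312 UMIs in set 1 and 26494 against 18983 in set 2, and the part of depth in the split was not tested. In set 1, 34 genes were higher (0.47% of 7235) and 0 lower with hARtg. In set 2, 189 genes were higher (2.68% of 7048) and 5 lower (0.0709%), and 12 genes (0.18%) were higher in both sets. Each count of higher genes includes hARtg itself, which defines the split. Of the 5 lower genes of set 2, 4 were globin genes, and 1 Tgm4-high cell held 838 Hbb-bs UMIs.

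Besides the transgene and reporter, Nupr1, a stress-responsive transcription regulator, Gsta3, a glutathione transferase, and Psca were higher with hARtg in both sets. Nupr1 was at 326 CPM (308 to 344) with and 59.7 CPM (55.1 to 64.5) without hARtg in set 1, and at 66.6 CPM (60.6 to 73.1) with and 6.33 CPM (3.37 to 10.8) without in set 2. Gsta3 was at 39.4 against 3.53 CPM in set 1 and 120 against 13.6 CPM in set 2. Psca was at 967 against 124 CPM in set 1 and 28.4 against 7.79 CPM in set 2. The Psca sums of set 1 rested on a minority of cells. Over all Tgm4-high cells of set 1 its median per cell was 29.5 CPM, the upper quartile 75.5 CPM and the highest cell 38253 CPM. The leading gene 9530053A07Rik had log2 ratios of -0.39 and -0.63 with hARtg, among the 5 lowest by mean beside Tcaf3, Ctso, Dusp5 and Prr9, of which none reached -1. Axin2 was at 21.4 CPM (17.2 to 26.4) with and 19.1 CPM (16.5 to 21.9) without hARtg in set 1 and at 72.5 CPM (66.3 to 79.2) with and 9.73 CPM (5.95 to 15.03) without in set 2.

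Seminal vesicle genes, whose products form the copulatory plug, were found in set 2. The 8 genes of the list in the table summed to 1873 CPM in Tgm4-high cells and 3074 CPM in the other gated cells of set 2, and to 0.337 and 1.18 CPM in set 1. Within the Tgm4-high cells of set 2 they summed to 2425 CPM in cells with a hARtg UMI and 51.6 CPM in cells with none. Pate4, the most abundant, was at 1152 against 19.5 CPM.

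Tgm4-high cells were also split at the median score of their set into high-score and low-score cells. In set 1, 27 genes were higher (0.373% of 7233) and 87 lower (1.2%) in high-score cells. In set 2, 20 genes were higher (0.282% of 7091) and 180 lower (2.54%). The counts of higher genes include score genes, among them Pnliprp1 and Ren1 in both sets, whose order follows from the rule. Low-score cells of set 2 held 816 CPM (790 to 843) of hARtg (ARQ), 92.1 CPM (83.4 to 101.5) of Axin2 and 3509 CPM of the 8 seminal vesicle genes. High-score cells of set 2 held 208 CPM (195 to 222), 23.4 CPM (19.1 to 28.4) and 223 CPM, respectively. Pbsn was at 4066 CPM (4007 to 4126) in low-score and 7688 CPM (7606 to 7771) in high-score cells. Ren1 belongs to the score, so its order, 830 CPM (804 to 857) and 5724 CPM (5654 to 5796), follows from the rule. In set 1 hARtg was at 60.8 CPM (55.4 to 66.6) in low-score and 57.1 CPM (51.7 to 62.8) in high-score cells, whose intervals overlap. There the proximal luminal genes summed to 9604 CPM in low-score and 2744 CPM in high-score cells, and Pbsn was at 3016 and 8663 CPM.

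Doublet scores moved with the low-score cells of set 2. Scores over 0.25 were found in 25 of 169 cells (14.8%) with low and 6 of 170 cells (3.53%) with high scores of set 2, in 4 and 1 of 263 cells each in set 1, and in 1.59% of the other gated cells of set 2. Without such cells hARtg was at 443 CPM in the Tgm4-high cells of set 2 in place of 513 CPM. Axin2 was at 48.3 in place of 57.9 CPM and mGFP at 3434.5 in place of 3836 CPM. The seminal vesicle genes summed to 1945 in place of 1873 CPM. The thinned share of cells with hARtg was 37.3% in place of 40.1%. The part of doublets in the difference between low-score and high-score cells was not tested.

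**Figure D5:**
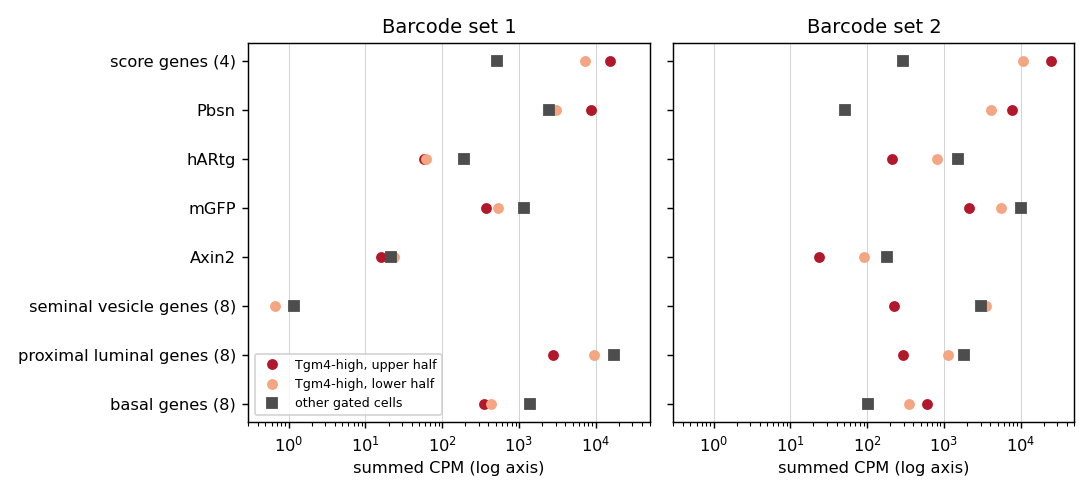
Summed CPM (log axis) of genes and gene lists (number of genes in brackets) in the high-score and low-score Tgm4-high cells and in the other gated cells of each barcode set; a sum of 0 is not drawn. In set 2 hARtg (816 and 208 CPM), Axin2 and the seminal vesicle genes lie higher in low-score cells, and in set 1 hARtg is near one level in both (60.8 and 57.1 CPM).

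Basal keratins differed in direction between the sets. Krt14, an intermediate filament of basal cells, was at 22.5 CPM (20.1 to 25.02) in Tgm4-high and 86.5 CPM (84.4 to 88.5) in the other gated cells of set 1, and at 157 CPM (148 to 165) and 30.7 CPM (29.8 to 31.5) in set 2. Krt15 was at 68.2 against 662 CPM in set 1 and 77.3 against 28.3 CPM in set 2, and Krt17 at 100 against 492 CPM and 66.9 against 20.1 CPM. The 8 basal markers summed to 389 and 479 CPM in Tgm4-high cells and to 1407 and 104 CPM in the other gated cells. Of 5 listed basal markers 3 were lower and 0 higher in set 1, with a highest log2 ratio of 0.66. All 4 listed in set 2 were higher. Over all listed genes 3.12% were lower in set 1 and 5.52% higher in set 2. Dst, another basal marker, was at 168 and 145 CPM in Tgm4-high cells. Set 2 was at 6.97 times the level of set 1 for Krt14 in Tgm4-high cells and 0.355 times in the other gated cells.

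Between the sets, 156 genes were higher (2.15% of 7251) and 308 lower (4.25%) in Tgm4-high cells of set 2. In the other gated cells 453 genes were higher (6.22% of 7287) and 807 lower (11.1%) in set 2. Ren1, a score gene, had a log2 ratio of 7.28 in Tgm4-high cells. MHC class II genes had low ratios, with Cd74 at 1.36 CPM in set 2 and 2187 CPM in set 1. In the other gated cells Cd74 was also lower in set 2, at 23.3 against 4065 CPM. Cd59a, a complement regulator, was at 432 CPM in set 2 and 0.540 CPM in set 1 in Tgm4-high cells, and at 340 and 3.62 CPM in the other gated cells. Tissue, age, mouse, strain background and library cannot be told apart in these differences.

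Tgm4-high cells were last set against other groups of gated cells that were not Tgm4-high. Msmb-high cells were the top 8% by Msmb, proximal-gene-high cells the top 8% by a score of proximal luminal genes, and transgene-high cells had 5 or more hARtg UMIs. Against the 767 Msmb-high cells of set 1, 120 genes were higher (1.66% of 7215) and 195 lower (2.7%). Against proximal-gene-high cells, 257 genes were higher (3.54% of 7255) and 382 lower (5.27%) in set 1, and 334 genes were higher (4.59% of 7279) and 593 lower (8.15%) in set 2. Against transgene-high cells, 208 genes were higher (2.85% of 7288) and 309 lower (4.24%) in set 1, and 424 genes were higher (5.99% of 7078) and 305 lower (4.31%) in set 2. 9530053A07Rik was at 171 CPM (166 to 176) in Msmb-high and 131 CPM (126 to 136) in proximal-gene-high cells of set 1, far under its level in Tgm4-high cells. Pbsn was at 6570 CPM (6540 to 6600) in Msmb-high cells, above the 5793 CPM of Tgm4-high cells, and at 54.2 CPM in proximal-gene-high cells. Of the UMIs of the other gated cells of set 1, Msmb-high cells held 38085 of 41614 for Spink1, 73728 of 78049 for Wfdc3 and 107730 of 170610 for Sbp. Thinned shares in set 1 were near those of proximal-gene-high cells. They were 1.35% in Tgm4-high and 1.21% in proximal-gene-high cells for Spink1, 8.65% and 6.79% for Sbp, and 8.27% and 9.65% for Wfdc3. Of the 865 Tgm4-high cells 64 were also in the top 8% by Msmb and 17 in the top 8% by the proximal genes.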

How the data were processed

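Prostate cell suspensions were profiled with the 10x 3' v2 kit. UMIs were counted by the authors with Cell Ranger 3.1.0 on mm10 plus the transgene and reporter sequences, and empty droplets, multiplets and cells with much mitochondrial RNA were taken out before deposit. ARQ and EGFP are read here as hARtg and mGFP by name, and how reads shared with a mouse gene were assigned is not given in the sources used here. The deposited values are on the natural log scale (1 plus the UMIs per 10000 of a cell), from which 100% of the 56988269 values above 0 gave whole UMIs within a tolerance of 0.001.

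Sums were made over 19320 features. The members, gate, gene lists and the rule for named genes were chosen with earlier results of these data known. Named genes were the markers, score genes, transgene, reporter and driver, 11 further genes, the 12 highest and 8 lowest by mean log2 ratio over the sets, the 5 highest and 5 lowest by hARtg, and up to 4 per list; other genes named (among them Gsdma, Hspa5, Cd59a, C1ra, Pate4, Krt14 and Nkd1) were chosen after their values were seen. Some named genes are not reported here. Ratio intervals used the conditional binomial distribution. Scrublet (scanpy 1.11.5, expected rate 6%) called 0 doublets by its automatic limit. A limit of 0.25 was chosen on seeing its scores, and cells above it were kept. Scripts were tested on simulated data with Python 3.11.15, numpy 2.4.6, scipy 1.17.1 and pandas 2.3.3. The cell numbers that the study states for PIN and PCa equal or lie close to those of sets 1 and 2, respectively, but were not used to assign tissue, since the labels do not tie a suffix to a sample.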

Additional observations from a re-analysis of the deposited data

Results flagged for a closer look

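The genes below were past the ratio limit in opposite directions in the 2 barcode sets, and the difference between the sets was not tested. Values are log2 ratios of Tgm4-high over other gated cells. Krt15 was at -3.10 in set 1 and 1.19 in set 2, Krt17 at -2.19 and 1.35, and Krt14 at -1.57 and 2.03. Slc30a2, a zinc transporter, was at 1.32 in set 1 and -1.22 in set 2. Nkd1, an inhibitor of Wnt signalling, was at 1.26 in set 1 and -1.25 in set 2. In all, 12 of the 6552 genes listed in both sets (0.183%) were past the limit in opposite directions.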

How the results depend on the processing

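Of 1595 recomputed values 1084 stayed within their counting interval or, for counts of genes, within 1.5 times, 511 moved further and none of the called values reversed. The limit on the score set the shares. With the top 4% the shares of gated cells were 5.70% in set 1 and 3.30% in set 2, and 382 genes were lower in set 1. With the top 12% they were 24.1% and 7.09%, with 224 genes higher and 110 lower in set 2. With the top 8% taken within each set they were 7.98% and 7.999%, with 356 genes lower in set 1 and 195 higher and 88 lower in set 2. With Krt5 at 0 in the gate the share in set 1 was 18.6%. With a pseudocount of 1 CPM, 182 genes were higher and 345 lower in set 1, and 631 and 525 in set 2. Thinned to 6000 UMIs, hARtg was seen in 10.4% and 52.2% and mGFP in 15.5% and 85.1% of Tgm4-high cells of sets 1 and 2. Without thinning the shares were 23.8% and 71.4% for hARtg and 35.9% and 97.1% for mGFP. These follow from the limit, pseudocount or depth itself. Leaving out each score gene in turn, scoring thinned UMIs, leaving out doublets, other scaling, other filters and equal weight per cell kept the shares within their intervals and the counts within 1.5 times, but single ratios moved past their counting intervals, 50 of 110 values without Tgm4 in the score, 49 without C1rb and 44 with thinned scoring. Over all alternatives the log2 ratio in set 1 ran from -4.09 to -1.35 for Psca and from -6.06 to -2.95 for Spink1. For Ren1 it ran from 0.87 to 3.09. Some called ratios fell inside the limit of 1 under an alternative. In set 2 hARtg ran from -2.12 to -0.70, mGFP from -1.84 to -0.70 and Axin2 from -1.86 to -0.87. In set 1 Pbsn ran from 0.75 to 1.96 and Agr2 from 0.65 to 1.49. Against the 806 other gated cells of set 1 with neither hARtg nor mGFP, 97 genes were higher and 232 lower, and 34 of 51 values moved, among them the weakest ratios of Psca and Spink1. This was not run in set 2, where 9 such cells remained. No paired analysis was possible because neither tissue had a second library.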
